A study of Homo sapiens with 9 samples.

Results

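The resting transcriptome of HaCaT cells was described from the 3 control libraries of a series of 9. HaCaT is an immortalised line of human skin keratinocytes that grows without feeder cells and keeps the ability to differentiate. The 3 libraries were those labelled DMSO, from cells held for 14 hours in 1% DMSO, the solvent of the drugs, in DMEM. The other 6 libraries came from cells given 250 nM CDDO-Me or 10 µM PRL-295 for the same 14 hours, and none of their values was used. Every control carried the solvent, so the state described is that of DMSO-exposed cells of 1 line, and an effect of the solvent cannot be told apart from the state of the line. The labels do not say whether the 3 libraries came from separate cultures, so the SDs given here may be technical.

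Keratinocytes build the epidermis. Dividing cells on the basement membrane make the keratin pair KRT5 and KRT14 and hold on through hemidesmosomes, and cells that move upwards replace that pair with KRT1 and KRT10 and then make cornified envelope proteins such as involucrin, the small proline-rich proteins and loricrin. The transcription factor NRF2, encoded by NFE2L2, is held low in resting cells by KEAP1, an adaptor that hands it to a CUL3 ubiquitin ligase; electrophiles modify KEAP1 and free NRF2 to switch on detoxification and antioxidant genes such as NQO1.

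Genes were ranked by mean FPKM, the number of counted fragments scaled to gene length and to library depth. For 54038 genes that length equals all exonic bases annotated for the gene in GENCODE 29, whichever transcripts the cells make. Levels of different genes are compared on this scale, and their order and ratios depend on the annotated length. A gene was counted as detected at a mean of 1 FPKM or more. The libraries held 24239976, 32942156 and 31739895 counts for DMSO 1, 2 and 3. Of 58676 genes in the table, 11243 were detected, 4170 stood at 10 FPKM or more, 392 at 100 or more and 32 at 1000 or more. Of 19821 protein-coding genes, 9763 were detected (49.3%), 4059 stood at 10 FPKM or more (20.5%) and 381 at 100 or more (1.92%). These are the shares to set beside the counts of list members below. The commonest genes took a moderate part of the reads: the 100 highest held 19.8% ± 0.594 of counts (SD, n = 3) and the 1000 highest 51.2% ± 0.760.

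The 3 libraries differed at low counts. DMSO 2 was the deepest but had counts in 17821 genes, below 18958 in DMSO 1 and 22507 in DMSO 3. Genes with a count in 1 library alone numbered 851, 557 and 3475, with a median of 5, 9 and 3 counts. Genes at 0.1 to 0.3 FPKM in the other libraries were at 0 in 33.9%, 43.7% and 16.5% of cases, although their level would have given a median of 7.46, 9.55 and 10.8 counts. A limit of 3 counts for a gene at 0 would be 0.124, 0.0911 and 0.0945 FPKM at 1000 bases, and it understates what a 0 allows in these files. At 1 to 5 FPKM the shares at 0 were 0.710%, 1.78% and 0.275%. A gene with no count is therefore described as such and not as absent. Gene length also moved with the libraries: for genes of 5 FPKM or more and at most 2777 bases, the median deviation from the gene's own mean was -0.05, -0.03 and 0.08 in DMSO 1, 2 and 3 on the log2(FPKM + 1) scale, and for those of at least 6513 bases it was 0.04, 0.01 and -0.05. What produced either pattern was not tested.

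The top of the ranking was held by energy metabolism, translation, the cytoskeleton and keratins. The 30 highest genes of at least 300 bases comprised 12 mitochondrially encoded genes, 4 ribosomal protein genes, 3 keratins, 2 translation factors, 1 S100 gene and 8 others. The first was MT-CO1, a core subunit of cytochrome c oxidase, at 8170 FPKM in DMSO 1, 9800 in DMSO 2 and 9229 in DMSO 3. MT-CO2 and MT-CO3, the other mitochondrial subunits of that enzyme, followed at means of 7280 ± 1390 and 6328 ± 943 FPKM (SD, n = 3). Within each library the order was the same, but the ranges of neighbours in it overlapped. Messenger RNAs of the mitochondrial genome took 3.72%, 4.67% and 4.31% of the counts in DMSO 1, 2 and 3, and their part of all FPKM was larger, at 12.97%, 16.2% and 14.5%. DMSO 1 was lowest on both scales.

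Among nuclear genes of 300 bases or more, KRT14 ranked first. It encodes the type I keratin of basal cells, lies on the reverse strand at chr17:41582279-41586921 (hg38, the build named for all gene positions) and stood at 2392, 2041 and 2021 FPKM, with DMSO 1 above the other libraries. Over all genes it was 11th. RPS2, a protein of the small ribosomal subunit, followed at 1790 ± 66.4 FPKM (SD, n = 3), and the cytoplasmic actins ACTB and ACTG1 were at 1755 ± 73.5 and 1299 ± 26.8. KRT5, the type II partner of KRT14, lies at chr12:52514575-52520687 and stood at 1327, 1262 and 1326 FPKM, rank 21. The remaining genes at this level included EEF1A1, the factor that carries tRNAs to the ribosome, at 1546 ± 73.6 FPKM, GAPDH of glycolysis at 1222 ± 49.5, the tubulin TUBB4B at 1208 ± 45.3 and the ribosomal proteins RPL7A, RPL8 and RPL35 at 1271 ± 95.5, 1265 ± 48.1 and 1146 ± 91.2. SFN, the 14-3-3 sigma protein of stratified epithelia, was at 1201, 1098 and 1143 FPKM. These 3 values lie within those of KRT6A, so the order of SFN and KRT6A is not resolved.

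Several of the highest genes differed between libraries. MT2A, a metallothionein that binds zinc and copper, was at 984, 1212 and 1725 FPKM. TMSB10, which binds actin monomers, was at 1344, 1492 and 1915, and S100A11, a calcium-binding protein of keratinocytes, was at 960, 983 and 1499. DMSO 3 was highest for each of these genes, as it was for 35.1% of all genes at 1 FPKM or more. All were shorter than 2777 bases, and the part of length in this was not tested. One row named Metazoa_SRP, an RNA of the signal recognition particle type with many near-identical copies in the genome, stood at 1238, 1806 and 2203 FPKM, and its reads cannot be assigned to 1 copy with certainty. Under 300 bases, the processed pseudogene RPL41P1, of 81 bases, ranked 8th at 2988 ± 254 FPKM (SD, n = 3), while RPL41, the gene it copies, stood at 521 ± 90.2. Reads of the gene and the copy are hard to separate, and the level rests on a length of 81 bases.

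KRT5 and KRT14 led the keratins, followed by those of activated epidermis and of simple epithelia. Keratin filaments form from pairs of 1 type I and 1 type II protein. Of 54 keratin genes in the lists, 37 epithelial and 17 of hair type, 18 were detected, 7 were at 100 FPKM or more and 21 had no count in any library. KRT14, KRT5 and KRT6A together with KRT17, KRT8, KRT7 and KRT18 made up the 7. The summed FPKM of type II over that of type I was 1.04, 1.11 and 1.10 in DMSO 1, 2 and 3. KRT5 and KRT14 held 54.3% ± 1.25 of all epithelial keratin FPKM (SD, n = 3). Within that pair KRT14 was the higher in FPKM in every library, by 1.65-fold ± 0.142. In counts KRT5 was the higher, at 138084, 178495 and 180701 against 132240, 153343 and 146342. The lengths used were 4292 bases for KRT5 and 2281 for KRT14, so their order depends on the scale.

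**Figure D1:**
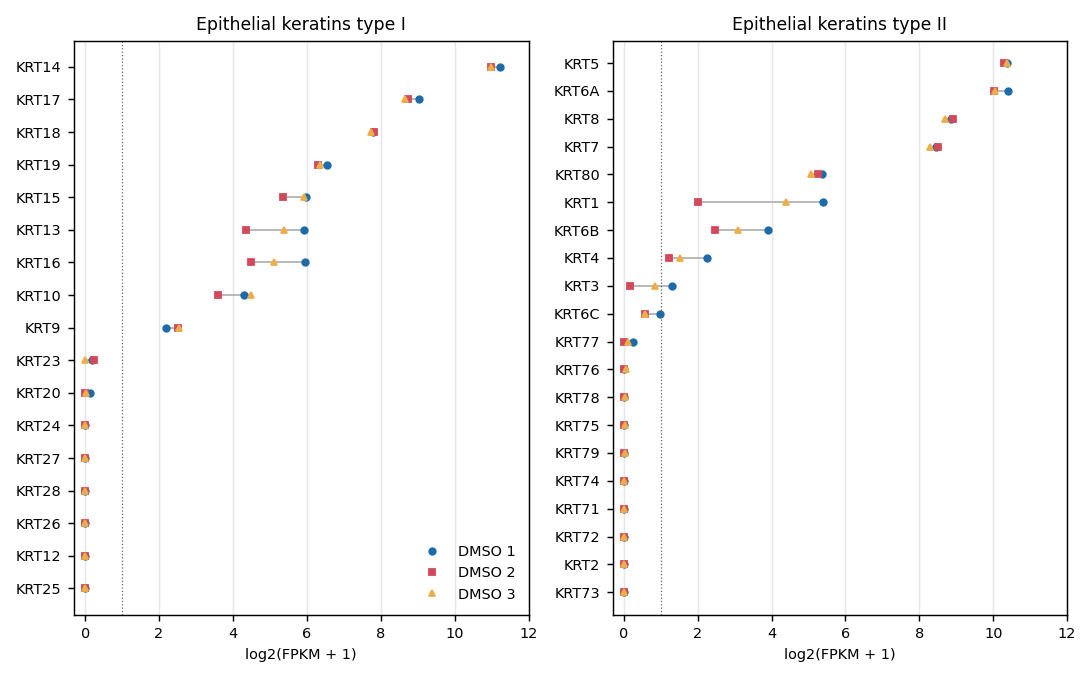
Level of each epithelial keratin gene in the 3 DMSO libraries as log2(FPKM + 1), type I on the left and type II on the right; each point is 1 library, the grey line joins the lowest and highest, and the dotted line marks 1 FPKM. KRT14 and KRT5 lead their types, and KRT1, KRT13, KRT16 and KRT6B spread most between libraries among genes above 5 FPKM.

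The keratins of wounded and fast-growing epidermis, KRT6A, KRT16 and KRT17, held 25.6% ± 1.68 of the epithelial keratin FPKM. KRT6A was at 1345, 1036 and 1060 FPKM and KRT17 at 528, 424 and 403, both highest in DMSO 1. KRT16, the usual type I partner of KRT6, was far lower at 60.6, 21.5 and 33.4 FPKM, so that KRT17 exceeded KRT16 by 8.72-fold, 19.8-fold and 12.1-fold. KRT6B was at 14.0, 4.52 and 7.52 FPKM and KRT6C at 0.983, 0.493 and 0.500. KRT6A, KRT6B and KRT6C are near-identical in sequence, as are KRT14, KRT16 and KRT17 with their pseudogenes, and how reads were split between such copies is uncertain.

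Keratins of simple, single-layered epithelia were present at high levels. KRT8 stood at 465, 478 and 412 FPKM and its partner KRT18 at 222, 226 and 212, so KRT8 was higher by 2.05-fold ± 0.0950 (SD, n = 3). KRT7 was at 352, 364 and 311 FPKM and KRT19 at 93.1, 77.4 and 81.4. These 4 genes held 17.3% ± 1.47 of the epithelial keratin FPKM. KRT20, a keratin of gut and Merkel cells, was at 0.0894, 0 and 0.0171 FPKM. KRT15, a basal keratin rich in the hair follicle, was at 62.5, 39.9 and 59.6 FPKM, lowest in DMSO 2. KRT80, a broadly expressed type II keratin, was at 36.8 ± 3.87 FPKM (SD, n = 3).

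The keratins of differentiating layers were low and uneven. KRT1 and KRT10 held 0.853%, 0.234% and 0.686% of the epithelial keratin FPKM. KRT1 was at 41.4, 3.04 and 19.96 FPKM, from 2495, 249 and 1576 counts, and KRT10 at 18.6, 11.1 and 21.6. KRT13, the keratin of mucosal upper layers, was at 59.3, 19.5 and 41.1 FPKM, and its partner KRT4 at 3.79, 1.35 and 1.85. DMSO 2 was lowest for each of these genes, as it was for 33.6% of all genes at 1 FPKM or more. KRT2, of the upper epidermis, had no count. KRT9, the keratin of palm and sole skin, was at 3.53, 4.69 and 4.83 FPKM, and the hair keratin KRT81 was at 7.76, 6.06 and 6.94. The other 16 hair keratins were below 1 FPKM.

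Outside the keratins, the nuclear lamins led the intermediate filaments: LMNA was at 253 ± 26.2 FPKM, LMNB2 at 176 ± 17.9 and LMNB1 at 38.3 ± 5.47 (SD, n = 3). VIM, which encodes vimentin, the filament of mesenchymal cells, was at 0.0499, 0.141 and 0.0381 FPKM. Antisense genes share 24.4% of the exonic bases of VIM, and the files do not say whether reads were counted by strand. NEFL, a neurofilament subunit better known from neurons, was detected at 14.8, 12.6 and 14.1 FPKM. The 3 values of NEFL were close together and above every library's value of NES, the next member, which had a mean of 3.70.

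All 11 basal keratinocyte markers were detected, and 10 of them stood at 10 FPKM or more. LAMB3 and LAMA3, chains of the laminin that basal cells lay down as an anchor, were at 235, 248 and 227 FPKM and at 78.0, 85.8 and 91.7. COL17A1, a collagen of the hemidesmosome, was at 278 ± 7.57 FPKM (SD, n = 3). TP63, the transcription factor that maintains stratified epithelium, was at 13.4, 15.99 and 15.9 FPKM. The library values of each neighbouring pair among the basal markers were separate, except those of KRT15 and ITGA6. By KRT5, KRT14 and TP63 the libraries carried the defining transcripts of the labelled cell type.

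Genes of epithelial junctions were mostly detected. Of 14 desmosome genes 11 were detected, led by the plaque protein JUP at 293 ± 30.05 FPKM (SD, n = 3), PKP3 at 174 ± 26.2 and DSP at 108 ± 8.91. Among desmosomal cadherins, DSG3 of lower layers was at 35.0 ± 3.05 and DSG2 at 34.1 ± 1.98, with overlapping values, whereas DSG1 and DSC1 of the upper layers had means of 0.0236 and 0.00738 FPKM. The desmosomal cadherins detected were thus mainly those of lower layers. P-cadherin, CDH3, a cadherin of basal cells, was at 140, 149 and 159 FPKM and E-cadherin, CDH1, at 60.6, 71.2 and 69.9. N-cadherin, CDH2, usually tied to mesenchymal and neural cells, was also detected, at 9.88, 12.4 and 11.99 FPKM, and CDH1 exceeded it by 5.90-fold ± 0.213. The claudin CLDN7 led 12 detected tight junction genes of 14 at 142 ± 4.83 FPKM.

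Of 22 markers of suprabasal and cornified layers 12 were detected, a share near the 49.3% of all protein-coding genes. KLK5, a protease that sheds the outermost cells, had the highest mean, at 118, 109 and 123 FPKM. SPRR1B, a small proline-rich envelope protein, was at 141, 53.3 and 104 FPKM, overlapping KLK5, and its neighbour SPRR1A, of 270 bases, at 32.1, 0.675 and 14.0. IVL, involucrin, was at 27.6, 14.3 and 17.0 FPKM. FLG, filaggrin, was at 11.8, 11.7 and 9.10, and TGM1, the crosslinking enzyme of the envelope, at 3.29, 2.05 and 2.36. LOR, loricrin of the finished envelope, was at 0.168, 0 and 0.205 FPKM. CDSN, corneodesmosin, was at 0.323, 0.309 and 0.0741, and 93.8% of its exonic bases are shared with genes on the other strand.

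DMSO 2 was lowest for 11 of the 12 detected differentiation markers, with FLG the exception, and DMSO 1 was highest for 7. Among all 11243 genes at 1 FPKM or more, DMSO 2 was lowest for 33.6% and DMSO 1 highest for 39.1%. The median deviation of the 12 from their own mean was 0.25 in DMSO 1, -0.37 in DMSO 2 and 0.15 in DMSO 3 on the log2(FPKM + 1) scale. For the 11 basal markers the same medians were 0.02, 0.03 and -0.01. The order DMSO 1, then 3, then 2 was seen in 17.6% of all genes at 1 FPKM or more, and 6 of the 12 markers had it. These orders were noticed in the values and were not tested, and in bulk libraries such as these, fewer differentiated cells and less RNA per cell cannot be told apart. AQP3, a water and glycerol channel, had the same order at 46.6, 19.7 and 33.9 FPKM; it was picked after its values were seen.

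**Figure D2:**
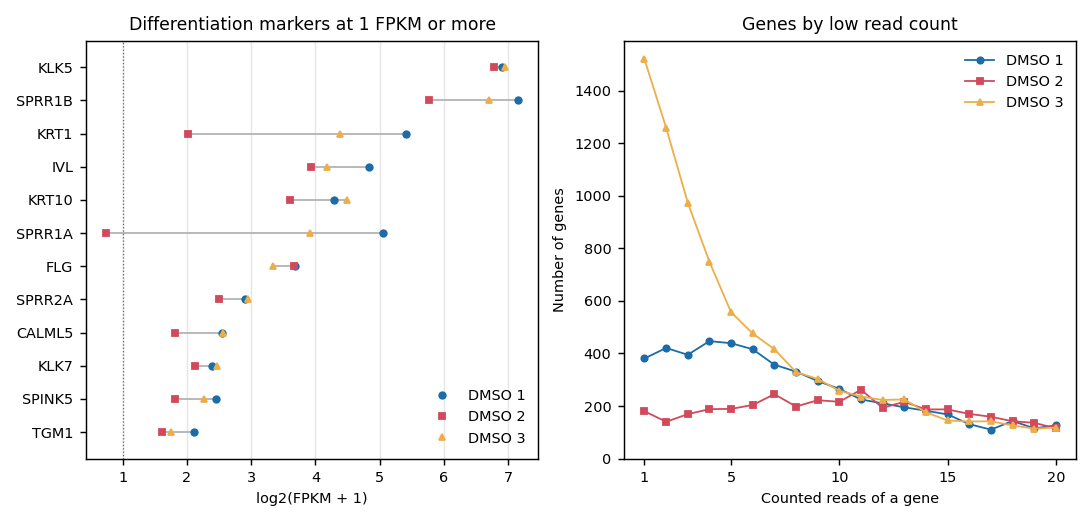
Left: the 12 differentiation markers at a mean of 1 FPKM or more, as log2(FPKM + 1) in each DMSO library, the grey line joining lowest and highest and the dotted line marking 1 FPKM; DMSO 2 lies lowest for 11 of them. Right: number of genes (linear axis) with each low number of counted reads, 1 to 20, per library; DMSO 3 has 1520 genes with exactly 1 read, DMSO 1 has 381 and DMSO 2 has 180.

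Proximal promoter sequence is shown for SPRR1A, SPRR1B and IVL, among the markers with such library differences. Each of them holds a match to the motif given below, so they do not represent the list. Promoters of other such markers, among them KRT1, are not shown. The 150 bases before the start of SPRR1A (chr1:152983931-152984080, forward strand), SPRR1B (chr1:153031053-153031202, forward) and IVL (chr1:152908396-152908545, forward) come from RefSeq on GRCh38.p14, and capitals mark matches to TGANTCA, the letters bound by AP-1, a factor pair known for driving differentiation genes of keratinocytes.
SPRR1A: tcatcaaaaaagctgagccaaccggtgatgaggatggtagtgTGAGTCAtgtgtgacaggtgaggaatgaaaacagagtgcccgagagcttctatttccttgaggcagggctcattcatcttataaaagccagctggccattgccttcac
SPRR1B: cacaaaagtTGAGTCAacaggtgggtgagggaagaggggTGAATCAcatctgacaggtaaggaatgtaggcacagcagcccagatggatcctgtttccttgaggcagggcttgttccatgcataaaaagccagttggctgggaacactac
IVL: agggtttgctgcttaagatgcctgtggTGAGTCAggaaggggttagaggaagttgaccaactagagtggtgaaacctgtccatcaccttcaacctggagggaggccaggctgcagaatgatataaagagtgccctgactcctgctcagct
SPRR1A holds 1 match beginning 108 bases before the start, IVL 1 at 123, and SPRR1B 2, at 141 and 111. Over windows from 250 bases before to 50 after the start, searched on both strands, 8 of 19 suprabasal markers with an entry held such a match (42.1%), and 9.37% of 27305 promoters did. A match is a description of letters and no measure of binding, and its part in the library differences was not tested.

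Of 25 integrin genes 11 were detected. ITGB4, the hemidesmosomal beta chain that pairs with ITGA6, was at 154, 152 and 128 FPKM, and ITGA6 at 46.1, 46.8 and 44.2, a ratio of 3.16 ± 0.233 (SD, n = 3). ITGA3 and ITGB1, chains of a laminin receptor, were at 89.0 ± 11.1 and 61.3 ± 7.49 FPKM, and the collagen-binding ITGA2 at 39.7 ± 3.07. The leukocyte chain ITGAL and the chain ITGA8 had no count, and ITGAX had a mean of 0.00721 FPKM.

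Across 11 receptor lists with 235 genes, which also hold integrins, Notch ligands, tetraspanins and the receptor partner ARNT, 134 were detected (57.0%), 66 were at 10 FPKM or more, 6 at 100 or more, 63 below 0.1 and 26 had no count. The 66 and the 6 made up 28.1% and 2.55% of the lists. Among all protein-coding genes 49.3% were detected, 20.5% stood at 10 FPKM or more and 1.92% at 100 or more. Genes at 100 or more included TNFRSF12A, ITGB4, CD9, SDC1 and SDC4. TNFRSF12A, the receptor of the cytokine TWEAK, was at 156, 161 and 207 FPKM, with DMSO 3 the highest.

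**Figure D3:**
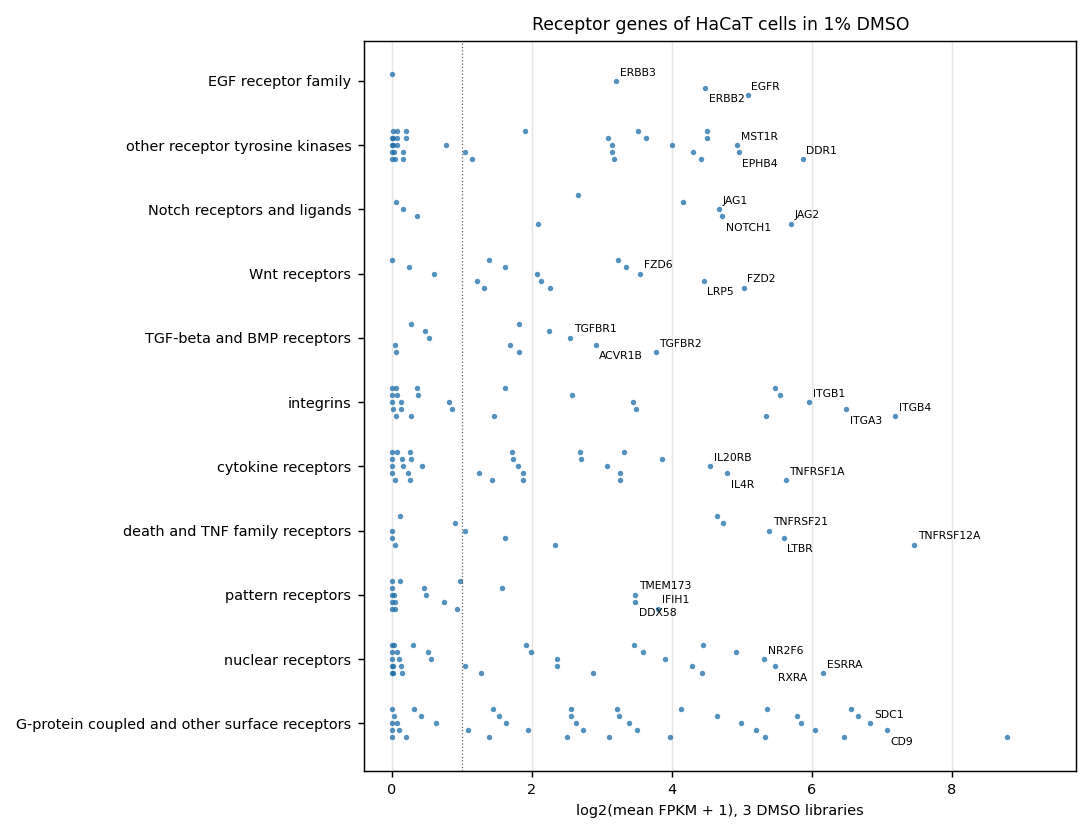
Mean level of the 235 genes of the receptor lists, Notch ligands and receptor partners included, over the 3 DMSO libraries as log2(FPKM + 1), 1 row per list, each point 1 gene, with some of the highest genes of each list named; vertical offsets within a row only separate points, and the dotted line marks 1 FPKM. TNFRSF12A has a mean of 175 FPKM, and 63 genes lie below 0.1 FPKM.

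In the EGF receptor family, EGFR, which drives keratinocyte growth, was at 36.3, 33.6 and 28.6 FPKM. ERBB2, its partner without a ligand of its own, was at 23.7, 21.7 and 18.4, and ERBB3 at 8.86, 8.74 and 7.08. The values of these 3 genes did not overlap, and DMSO 3 was lowest for each, as it was for 34.15% of all genes at 1 FPKM or more. ERBB4 was at 0, 0.00233 and 0.00242 FPKM. The ligands TGFA, NRG1 and HBEGF were at 21.6 ± 1.87, 12.7 ± 0.0802 and 12.5 ± 1.81 FPKM (SD, n = 3), and AREG at 3.96, 5.80 and 5.98. EGF itself had counts in DMSO 2 only, at 0.104 FPKM. Of 11 ligand genes 4 were detected.

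Other receptor tyrosine kinases were detected for 17 of 34 genes. DDR1, a collagen receptor of epithelia, was at 62.5, 56.3 and 53.6 FPKM. EPHB4 was at 29.96 ± 3.91 and MST1R, the receptor of macrophage-stimulating protein, at 29.5 ± 0.420, with overlapping values. AXL, MET and IGF1R had means of 21.5, 20.4 and 10.4 FPKM. FGFR2 and FGFR3, the fibroblast growth factor receptors of epithelia, had means of 7.53 and 7.79, and FGFR1 of 0.0251. The mesenchymal receptors PDGFRA and PDGFRB had counts in DMSO 3 only, with means of 0.00432 and 0.00736 FPKM. KIT, the stem cell factor receptor of melanocytes, had no count.

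Notch genes were detected for 6 of 9. JAG2 was at 54.4, 53.4 and 44.7 FPKM, above NOTCH1 at 28.1, 26.2 and 21.8 and JAG1 at 25.9, 22.5 and 25.0, which overlapped each other. NOTCH1 starts differentiation in the spinous layer and JAG1 and JAG2 are ligands of it. NOTCH4 had a mean of 0.0359 FPKM. Of 15 Wnt receptor genes 12 were detected, led by FZD2 at 31.6 ± 0.716 FPKM and the coreceptor LRP5 at 20.9 ± 2.90 (SD, n = 3). LGR5, a mark of gut and follicle stem cells, had no count. TGF-beta signalling had TGFBR2 at 12.9, 12.9 and 11.9 FPKM and TGFBR1 at 4.20, 5.19 and 5.13, and 7 of its 12 receptor genes were detected.

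Among 30 cytokine receptors 17 were detected. TNFRSF1A, the main TNF receptor, was at 53.1, 43.2 and 48.5 FPKM, while TNFRSF1B had no count. IL4R, shared by interleukins 4 and 13, was at 28.0, 26.9 and 25.2, with IL13RA1 at 7.38 ± 0.755 (SD, n = 3). IL20RB was at 22.4 ± 3.999 and its partner chain IL20RA had a mean of 0.174. IL1R1, the signalling receptor of interleukin 1, had a mean of 0.195 FPKM, below IL1R2, a decoy for the same ligand, at 2.28. IL20RB and IL20RA, chains of 1 receptor, thus stood at different levels, though the low-count pattern limits values below 1 FPKM. IFNGR1 and IFNGR2 had means of 8.56 and 13.6 FPKM and IFNAR1 of 5.51.

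IFNAR2, the second chain of the type I interferon receptor, had a mean of 0.0461 FPKM and IL10RB of 0.189. Both lie under a readthrough gene, AP000295.1, on the same strand, which shares 44.2% of the exonic bases of IFNAR2 and 38.1% of those of IL10RB. RPS10, a ribosomal protein chosen after its values were seen, was at 1.26, 0.0185 and 0.480 FPKM. Of its exonic bases 39.4% lie under RPS10-NUDT3. FTH1, which shares exonic bases with genes on either strand, had a mean of 548 FPKM, so overlapped genes were not all low. The part of such overlaps in a low value was not tested, and a low value of an overlapped gene is not read here as a lack of transcript.

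Of 18 pattern receptors 4 were detected. The RNA sensors IFIH1 and DDX58 were at 13.7, 13.9 and 11.2 and at 9.91, 9.99 and 10.5 FPKM, and TMEM173, which encodes STING, was at 8.92, 9.98 and 11.4; the last 2 overlapped. Of the Toll-like receptors, TLR3 was highest with a mean of 0.967 FPKM and TLR2 followed at 0.680. TLR4, TLR7, TLR8, TLR9 and NLRP3 had no count, and 86.3% of the exonic bases of TLR9 lie under another gene.

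Of 32 nuclear receptor genes and partners 17 were detected. ESRRA, an orphan receptor that controls mitochondrial genes, was highest at 79.8, 67.3 and 64.7 FPKM. RXRA, the common partner of many receptors, was at 51.1, 42.4 and 36.0, and RARG, the main retinoic acid receptor of epidermis, at 31.3, 28.6 and 27.9. VDR, the vitamin D receptor, was at 20.7 ± 0.935 FPKM (SD, n = 3) and PPARD at 11.01 ± 2.11. DMSO 1 was highest for each of these named genes, as it was for 39.1% of all genes at 1 FPKM or more. Other detected members of the list differed. DMSO 3 was highest for NR1H2, with a mean of 20.4 FPKM, and DMSO 2 for NR1H3, with a mean of 6.34. The glucocorticoid receptor NR3C1 and the aryl hydrocarbon receptor AHR had means of 2.77 and 2.96 FPKM, and AHR shares 29.4% of its exonic bases with another gene on its strand. ESR1 had a mean of 0.00202, and PGR had no count.

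Of 43 other surface receptors 32 were detected. CD9 and CD63, tetraspanins, were at 119, 123 and 157 and at 80.5, 89.8 and 108 FPKM. SDC1 and SDC4, heparan sulphate carriers, were at 113 ± 15.4 and 100 ± 10.2 (SD, n = 3). Among G-protein coupled receptors, F2RL1, the protease receptor PAR2 of keratinocytes, had a mean of 35.6 FPKM, P2RY2 of 24.1 and LPAR1 of 14.7. CXCR4 and S1PR1, receptors that guide leukocytes and vessels, had no count.

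The NRF2 pathway had all but 1 of its 14 regulators detected. KEAP1 (chr19:10486120-10503741) was at 42.1, 38.0 and 36.3 FPKM and NFE2L2 (chr2:177227595-177392697) at 6.84, 9.37 and 9.21, without overlap. In FPKM, KEAP1 exceeded NFE2L2 by 4.72-fold ± 1.24 (SD, n = 3). This ratio was 6.15 in DMSO 1 and 4.05 and 3.95 in the other libraries. It depends on the annotated exon length of each gene, and the part of length in it was not tested. The values are transcript levels and say nothing of the protein, at which NRF2 is mainly controlled. SQSTM1, the autophagy adaptor that binds KEAP1, was the highest regulator at 115, 111 and 103 FPKM, and DPP3, another KEAP1-binding protein, was at 51.4, 49.2 and 44.8. CUL3 and RBX1, of the ligase, were at 3.65 ± 0.751 and 15.9 ± 3.30. The small MAF partners MAFK, MAFG and MAFF were at 17.6 ± 0.891, 16.7 ± 1.67 and 9.18 ± 1.11 FPKM, with MAFK and MAFG overlapping. BACH1, a repressor at NRF2 sites, was at 1.55, 1.83 and 1.60, and BACH2 had a mean of 0.0381 FPKM.

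Of 58 target genes in 6 lists, 53 were detected, 35 stood at 10 FPKM or more and 11 at 100 or more, with a median of 14.7 FPKM. Among all protein-coding genes the median was 0.912. Many targets are also expressed for other reasons in most cells, so these levels are no measure of NRF2 activity. NQO1, the quinone reductase used as the standard readout, lies on the reverse strand at chr16:69706996-69726951 and was at 107, 107 and 130 FPKM, rank 315, with DMSO 3 above the others. HMOX1, heme oxygenase 1, was at 3.91, 4.20 and 5.84, so NQO1 exceeded it by 25.0-fold ± 2.61.

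The highest targets store iron or handle thiols. FTL, the ferritin light chain, was at 1021, 923 and 929 FPKM and FTH1, the heavy chain, at 658, 552 and 435. FTL was higher by 1.79-fold ± 0.308 (SD, n = 3), and FTH1 shares 62.4% of its exonic bases with genes on either strand. TXN, thioredoxin, was at 426, 524 and 713 FPKM and PRDX1, a peroxidase it serves, at 96.3, 110 and 189. DMSO 3 was highest for TXN, PRDX1 and SOD1, which was at 75.8, 88.8 and 116, and lowest for FTH1. TXNRD1, which recharges thioredoxin, was at 21.2, 23.7 and 24.1 FPKM, and SRXN1 at 2.75, 1.69 and 1.31, with 85.0% of its exonic bases under another gene.

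In glutathione metabolism, GSTP1, the main glutathione transferase of skin cells, was at 664, 616 and 726 FPKM. GPX1, GPX2 and GPX4, glutathione peroxidases, were at 244 ± 20.1, 108 ± 18.3 and 88.4 ± 11.1 (SD, n = 3). The synthetic enzymes were lower: GCLM and GCLC, the subunits of the rate-limiting ligase, were at 13.5, 13.6 and 12.8 and at 8.43, 8.01 and 8.90 FPKM, and GSS at 63.0 ± 3.38. SLC7A11, the cystine carrier, was at 2.16, 1.33 and 1.63, and its heavy chain SLC3A2, shared with other carriers, at 190, 208 and 203. MGST1 had no count in any library, and GSTA4 had a mean of 0.121 FPKM.

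The promoters of GSTP1 (chr11:67583662-67583811, forward strand) and GCLM (chr1:93909431-93909580, reverse) are shown, again 150 bases before the start from RefSeq on GRCh38.p14, because both are textbook targets and stood far apart in level here. Capitals mark a match, on either strand, to TGACNNNGC, the core of the antioxidant response element.
GSTP1: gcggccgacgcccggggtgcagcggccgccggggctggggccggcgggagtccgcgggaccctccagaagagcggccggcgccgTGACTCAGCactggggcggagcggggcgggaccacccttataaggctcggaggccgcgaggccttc
GCLM: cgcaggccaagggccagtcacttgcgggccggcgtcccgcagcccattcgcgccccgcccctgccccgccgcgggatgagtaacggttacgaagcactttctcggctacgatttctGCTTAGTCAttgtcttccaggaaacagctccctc
The match begins 66 bases before the start in GSTP1, where it overlaps a match to TGANTCA, and 34 bases before it in GCLM. In the longer windows, 16 of 44 targets with an entry held the core (36.4%), and 16.1% of all 27305 promoters did. A match is again a description of letters only.

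All 6 genes of NADPH supply were detected. TALDO1 and TKT of the pentose phosphate pathway were at 132 ± 7.24 and 90.2 ± 1.38 FPKM, and PGD at 91.4 ± 4.65 (SD, n = 3). The values of PGD and TKT overlapped. All 15 quinone and carbonyl genes were detected, after NQO1 the aldose reductase AKR1B1 at 39.1, 39.7 and 47.3 FPKM and AKR1C2 at 26.5, 18.9 and 32.5. AKR1C1, AKR1C2 and AKR1C3 are close copies of each other, and the split of reads between them is uncertain. Of 6 efflux genes 5 were detected, led by ABCC1 at 29.8, 25.6 and 26.2 FPKM.

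Interferon-stimulated genes were widely detected, 21 of 22, and 15 stood at 10 FPKM or more. Among all protein-coding genes 49.3% were detected and 20.5% stood at that level. IFI6, a mitochondrial survival protein, was at 273, 323 and 395 FPKM and ISG15, a ubiquitin-like modifier, at 296, 324 and 347, with overlapping values. IFIT3, a partner of the viral RNA sensor IFIT1, was at 94.1, 128 and 99.9. OAS3 was at 79.4, 80.6 and 69.3, and the transcription factor IRF7 was at 56.9 ± 4.38 FPKM (SD, n = 3). IFI44L had a mean of 0.417 FPKM. DMSO 1 was highest for 1 of the 21, against 39.1% of all genes at 1 FPKM or more. No cells without DMSO were included, and whether this level belongs to the line or to the culture cannot be told apart.

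The promoters of ISG15 (chr1:1013347-1013496, forward strand) and IFI6 (chr1:27672193-27672342, reverse) are printed as the highest genes of the list, and capitals mark matches, on either strand, to the core of an interferon-stimulated response element: GAAA, any 2 bases, and a second GAAA.
ISG15: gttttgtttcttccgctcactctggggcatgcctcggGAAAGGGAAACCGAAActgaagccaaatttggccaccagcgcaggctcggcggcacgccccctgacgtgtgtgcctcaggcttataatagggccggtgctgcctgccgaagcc
IFI6: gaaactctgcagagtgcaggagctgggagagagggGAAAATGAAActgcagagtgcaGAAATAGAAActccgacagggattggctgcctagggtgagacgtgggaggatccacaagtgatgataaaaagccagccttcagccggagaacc
The RefSeq start of ISG15 lies inside the longer gene model of the files, chr1:1001138-1014541. ISG15 holds 2 overlapping matches, 113 and 107 bases before the start, and IFI6 holds 2, at 115 and 93. Of 16 genes of the list with an entry 12 held the motif in the longer window, and 4.38% of all promoters did.

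Genes that mark other lineages were mostly near 0. Over 11 lists with 93 genes, 5 were detected, 18 lay between 0.1 and 1 FPKM, 70 lay below 0.1 and 36 had no count. The 5 were TAGLN, SCGB1A1, COL5A1, POU5F1 and COL1A1. TAGLN, an actin-binding protein of smooth muscle that other adherent cells also make, was at 15.4, 14.0 and 13.3 FPKM, while ACTA2, MYH11 and DES of muscle had means of 0.162, 0.218 and 0.00852. SCGB1A1, a secretoglobin of airway club cells, was at 4.54, 6.47 and 6.17 FPKM, whereas SFTPB, SFTPC and NKX2-1 of lung had means of 0.0210, 0.0216 and 0.0621.

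**Figure D4:**
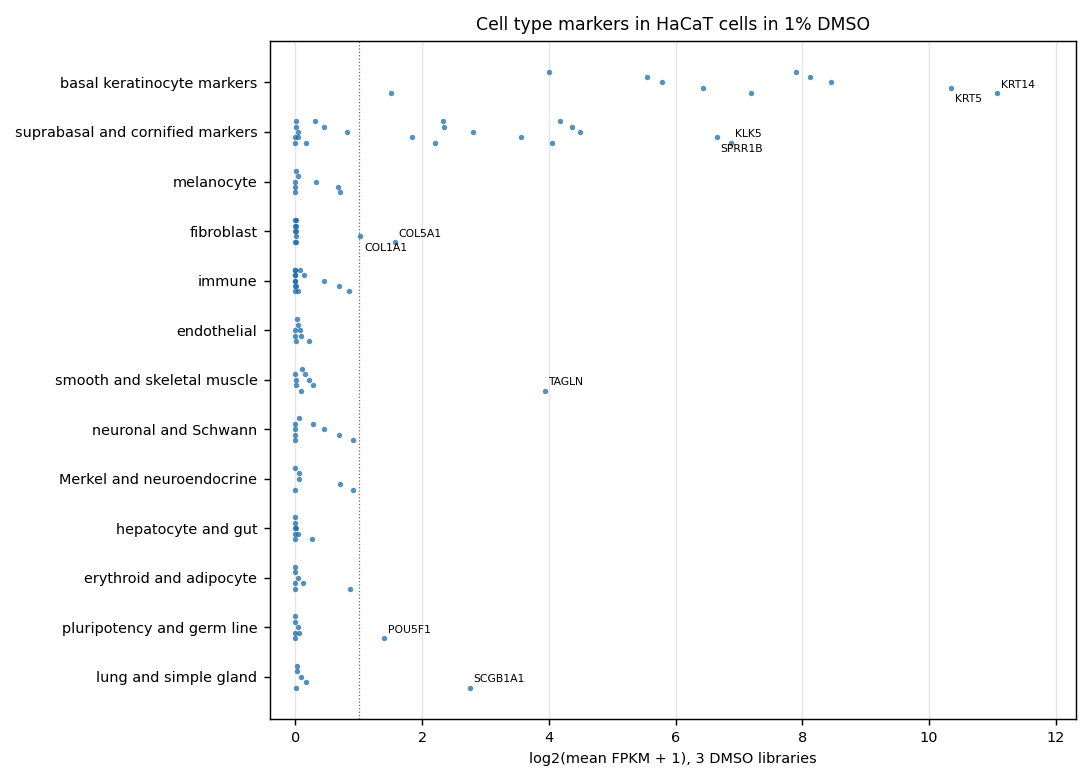
Mean level over the 3 DMSO libraries as log2(FPKM + 1) for basal and differentiation markers of keratinocytes and for 11 lists of other cell types, each point 1 gene, the dotted line marking 1 FPKM; vertical offsets only separate points. All 11 basal markers lie right of the line, and 5 of the 93 genes of other cell types do.

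COL5A1 and COL1A1, fibrillar collagens, were at 2.42, 1.63 and 1.82 and at 1.09, 0.863 and 1.15 FPKM, and COL1A2, the partner of COL1A1, had counts in DMSO 3 only, with DCN at 0. POU5F1, a pluripotency factor with several near-identical pseudogenes, was at 1.76, 1.80 and 1.33, while NANOG had a mean of 0.0244 and LIN28A had no count. The melanocyte enzymes TYR and TYRP1 had no count and MITF was at 0.379, 0.777 and 0.648 FPKM. PTPRC, the pan-leukocyte marker, had counts in DMSO 1 only, at 0.0197 FPKM, CD4 and CD207 of T and Langerhans cells had none, and HLA-DRA was at 0.709, 0.522 and 1.18. Of endothelial markers, PECAM1 had no count and VWF a mean of 0.161 FPKM. ALB, AFP, HBB and ADIPOQ, of liver, red cells and fat, had no count. TAGLN overlapped TP63 in its library values, and the other 92 genes lay below the lowest library of TP63.

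The proliferation list held 27 genes, 3 of them the cell cycle inhibitors CDKN1A, CDKN2A and CDKN2B. The other 24 were all detected, and 20 stood at 10 FPKM or more, against 49.3% and 20.5% of all protein-coding genes. The inhibitor CDKN1A was at 58.2, 45.4 and 53.1 FPKM, and CDKN2A and CDKN2B had means of 5.22 and 5.55. PCNA, the clamp of DNA polymerase, was at 155, 154 and 192 FPKM, the helicase subunit MCM7 at 165, 171 and 162, and CDC20, an activator of the anaphase-promoting complex, at 145, 142 and 163. CCND1, cyclin D1, was at 160, 156 and 124, and MKI67, the antigen of cycling cells, at 68.8, 69.5 and 57.5.

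Above 5 FPKM the libraries were close. The median SD of log2(FPKM + 1) over 6294 genes was 0.12, and for 71 genes the highest library exceeded the lowest by more than 2-fold on the FPKM + 1 scale. Of the 20 with the largest SD, 19 were under 300 bases, and 16 were of small RNA types, read from few counts, such as MIR3936 at 25, 0 and 59 counts. The others of protein-coding type were SPRR1A and KRT1. KRT1, of 2488 bases, was 13.6-fold higher in DMSO 1 than in DMSO 2, and SPRR1A, of 270 bases, rested on 210, 6 and 120 counts. Without DMSO 1 the mean of KRT1 was 11.5 FPKM in place of 21.5, and that of SPRR1A 7.34 in place of 15.6.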

How the data were processed

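RNA sequencing of HaCaT cells was used for 3 control libraries. Per the labels' protocols, the authors aligned paired reads with STAR 2.5 to hg38, counted reads per gene with HTSeq 0.6.1 and deposited whole read counts. They deposited FPKM values made from those counts and the gene length, per the same protocols, and recomputing FPKM from the counts, the length column and the library total returned the deposited values. STAR and HTSeq versions and the build also stand in the submitters' processing notes. The annotation release, strandedness and any removal of duplicate reads are not given in the sources used here. All 58676 identifiers are in GENCODE 29, and 55921 genes have its start and end. Of each deposited file, 6 columns of the other libraries were not used.

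Mean FPKM and SD over 3 libraries, ranks, counts of genes past a level (1 FPKM unless stated) and sums were computed with Python 3.11.15, pandas 2.3.3 and numpy 2.4.6. Library factors for 1 alternative came from edgeR 4.0.16 (TMM). No difference was tested, since 1 group is described, and the count of libraries limits precision. The spread calculation was tested on simulated data. Libraries were compared in pairs: no pair agreed within sampling noise, with a variance over Poisson of 18.7 to 33.9, so none was treated as a repeat of another library. This does not show separate cultures. Exon overlap was taken from GENCODE 29, and promoter windows from RefSeq (GRCh38.p14). Among 51 lists, 779 symbols were sought and none was unmatched.

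The genes named are the 30 highest of at least 300 bases with shorter genes among them, up to 6 of the highest members of a list with members below 0.1 FPKM of receptor and lineage lists, any keratin or NRF2 member, and the 20 genes with the largest SD of log2(FPKM + 1) at a mean of 5 FPKM or more. Some further list members are named for their role after their values were seen, such as IL1R1, NR3C1, AHR and MKI67. The members and lists were chosen with earlier results of these data known. Alternatives were other thresholds, CPM or TPM in place of FPKM, other pseudocounts and leaving out each library. Some list members are not reported here by name.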

Additional observations from a re-analysis of the deposited data

How the results depend on the processing

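Of 51 recalculations of the main values, 36 stayed within the replicate spread (1 SD) or within 1.5 times the count, and 15 did not. For the keratin ratio, the KRT5 and KRT14 share and the share of counts in the 10 highest genes, leaving out 1 library stays within that spread by construction. For the last, this holds because the 10 genes stayed the same. Those recalculations are among the 36 and are no evidence of stability. A mean of 1 TPM in place of 1 FPKM gave 15054 detected genes, which counted as within 1.5 times. With a threshold of 0.1 FPKM 18321 genes counted as detected and with 5 FPKM 6294, against 11243. For markers of other cell types these thresholds gave 23 and 2 against 5. DMSO library 3 alone, an alternative chosen after seeing the data, gave 7. Ranking by CPM, which ignores length, put KRT5 at rank 4, KRT14 at 9 and NQO1 at 399, raised the share of counts in the 10 highest genes from 4.30% to 6.38%, gave a keratin type II to type I ratio of 1.81 and put 49.4% of epithelial keratin in KRT5 and KRT14. The keratin ratio was 1.01 without KRT8 and KRT18. For the count of genes that varied more than 2-fold between libraries, 71, a minimum of 1 FPKM gave 520, and leaving out 1 library gave 33 to 45 (33 without DMSO 1, 40 without DMSO 2, 45 without DMSO 3), where fewer libraries lower the count by construction.

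Leaving out each library gave 11206 to 11311 detected genes, a top 10 share of 4.09% to 4.51%, rank 20 to 23 for KRT5, 11 to 12 for KRT14 and 309 to 340 for NQO1, a keratin ratio of 1.07 to 1.11, a KRT5 and KRT14 share of 53.7% to 54.96% and 4 to 5 markers of other cell types. Of 464 list members at 1 FPKM or more, 5 moved over 1.5 times in mean when 1 library was left out, also an alternative chosen after seeing the data: SPRR1A, KRT1, BDKRB1, S100A7 and DEFB1. No paired analysis was possible because only 1 group was described. Depth, near 0.1 FPKM for a gene of 1000 bases, and the low-count pattern limit every statement below 1 FPKM.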

Other observations

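S100 proteins and related alarmins, calcium-binding and antimicrobial proteins of the skin surface, were detected for 23 of 27 genes. S100A2, a nuclear S100 protein of basal cells, was at 357, 369 and 518 FPKM, S100A6 at 335, 253 and 382 and S100A10, the partner of annexin A2, at 222, 250 and 435. DMSO 3 was highest for 15 of the 23, against 35.1% of all genes at 1 FPKM or more. Of the 15 genes, 10 were no longer than 2777 bases, the length class whose median deviation was highest in DMSO 3. The share of such short genes among all 23 was not taken, so the count is not read further. The part of length was not tested. The summed FPKM of the list was 3513, 3350 and 4654. S100A9 and S100A8, the calprotectin pair of inflamed epidermis, had means of 55.5 and 10.6 FPKM, and PI3, the elastase inhibitor elafin, was at 76.9, 44.2 and 72.3.

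Secreted signals were led by the neutrophil chemokine CXCL1 at 63.3, 72.9 and 83.8 FPKM, then TGFB1 at 31.7 ± 2.68, IL18 at 19.3 ± 1.31 and IL1RN, the interleukin 1 receptor antagonist, at 19.1 ± 3.31 (SD, n = 3). IL1B was at 14.4, 16.5 and 16.1 and IL1A at 6.62, 6.06 and 7.51. The values of IL1RN and IL1B overlapped. IL6 had a mean of 0.170 FPKM, and IL33 and CCL27 had no count, although 97.7% of the exonic bases of CCL27 lie under another gene on its strand.

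Of 39 HOX genes, which record the body position of a cell, 20 were detected and 1 stood at 10 FPKM or more. The share detected was near the 49.3% of all protein-coding genes. HOXC13, a regulator of hair keratins, had the highest mean, at 12.7, 11.7 and 11.4 FPKM. HOXB7 was at 11.7, 7.21 and 9.65, overlapping HOXC13 and HOXC10, which was at 8.69, 8.80 and 9.49. HOXA9 was at 7.60, 4.90 and 5.55. HOXA13, HOXD13 and HOXB1 had no count. Many HOX genes share exons with neighbours: HOXD4, with no count, shares 80.5% of its exonic bases on the same strand.

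Long noncoding RNAs included MIR205HG, the host of an epithelial microRNA, at 30.2, 32.2 and 39.8 FPKM, and the nuclear RNAs NEAT1 at 7.96, 8.48 and 13.1 and MALAT1 with a mean of 5.54. DMSO 3 was highest for each of the 10 small nucleolar RNA hosts of the list at 1 FPKM or more, a subset picked after its values were seen. Among all genes at 1 FPKM or more it was highest for 35.1%. It exceeded both other libraries by over 1.5 times for 5 of the 10, and no share over all genes was taken for that excess. The part of length was not tested. SNHG1 was at 8.09, 8.22 and 18.7 FPKM and SNHG8 at 6.08, 9.60 and 18.2. CYP1A1 and CYP1B1, readouts of the aryl hydrocarbon receptor, were at 4.37, 4.27 and 3.61 and at 2.46, 1.80 and 2.22 FPKM.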
